A study of Homo sapiens with 2 samples.

Results

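The 44 genes of the human collagen chains were examined in MRC-5 cells, a human lung fibroblast line derived from fetal tissue, after transfection with control siRNA or periostin siRNA. The periostin siRNA was used at 10 nM and RNA was taken after 48 h. The siRNAs were ON-TARGETplus reagents, and the dose and time of the control siRNA were not stated separately. Total RNA of 1 culture per condition was hybridized to 1 single-colour Agilent array each, the slide and the scan being common to the arrays. The genes were taken by name, as every symbol made of COL, a number, A and a number, reached through the RefSeq accession of a spot. They were 44 of the 21743 genes that could be named in this way, and were chosen with earlier results of these data known. They were covered by 57 probes on 84 spots, none of which carried an outlier flag. Since no culture was replicated, no test between the conditions could be made, and the errors given are those of the spots.

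Collagens are the main structural proteins of the extracellular matrix. A collagen molecule is a trimer of chains wound into a helix, and it may hold copies of a single chain or chains from different genes, so that a trimer of unlike chains needs the products of several genes. Fibrillar collagens form the tensile fibres of connective tissue, type IV collagens form the sheets of basement membranes, and FACITs, the fibril-associated collagens with interrupted helices, coat the surface of fibrils. In the lung, fibroblasts make most of the fibrillar collagen, and its excess deposition is a hallmark of fibrosis. Periostin is a secreted matricellular protein that binds to collagen fibrils and to integrins.

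Each signal is the background-subtracted intensity of a spot, scaled so that the 75th percentile of both arrays equalled that of the control array, which was 372 before and after scaling. The log2 ratio is that of periostin siRNA to control siRNA, so a negative value means a lower signal with periostin siRNA. For a gene with several probes the brightest one was used. Single-spot ratios carry the error that Feature Extraction propagates, and for probes printed 10 times the SD over the 10 spots is given. POSTN, the targeted gene, had a signal of 2599 on the control array and 276 after knockdown, a log2 ratio of -3.24. The share of spots well above background was 58.0% and 58.9%, and none was saturated. All 10 fibroblast markers examined were well above background on both arrays, with VIM, the vimentin gene, at 186420 and 171407. Their log2 ratios were below 0 for 7 and above 0 for 3. They ran from -1.14 for TCF21 (2586 and 1177) to 0.83 for LUM (1931 and 3429). PECAM1 of endothelial cells, CDH1 of epithelial cells and HLA-DRA of antigen-presenting cells were below background on both arrays. Other members of their lists were measured. TEK of the endothelial list had 5375 with control siRNA and 5097 with periostin siRNA, and CD68 of the immune list had 1505 and 2414. KRT19 of the epithelial list had 164 and 337. Of 6 epithelial markers 4 were measured, and their list summed to 338 with control siRNA and 637 with periostin siRNA, EPCAM having 34.1 and 133. Of 4 smooth muscle markers 3 were measured, summing to 10414 and 59691, with ACTG2 at 7156 and 50947 and CNN1 at 2985 and 8428, while MYH11 was below background. The sums were 261254 and 239587 for the 10 fibroblast markers, 5529.8 and 5253 for 5 endothelial markers, 4 of them measured, and 1542 and 2464 for 7 immune markers, 3 of them measured. The part that these markers have in the collagen ratios was not tested. In a bulk RNA sample, fewer cells that express a gene and less of its RNA per cell cannot be told apart.

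Of the 44 collagen genes, 32 were well above background on both arrays, COL23A1 was so with periostin siRNA alone, and 11 were below background on both arrays. The 11 were COL2A1, COL4A3, COL4A4, COL6A5, COL6A6, COL11A1, COL17A1, COL19A1, COL22A1, COL25A1 and COL28A1. Several of these are known from cartilage, kidney or epithelium rather than from fibroblasts, such as COL2A1 of cartilage, COL4A3 and COL4A4 of the glomerulus and COL17A1 of the hemidesmosomes of skin. The signals of the measured genes spanned a wide range, from 95751 for COL4A2 to 7.11 for COL23A1 on the control array, and 19 of the 33 lay at or above the 75th percentile of that array. Brightness depends on the sequence of the probe, so this order is one of probes and does not rank the transcripts of different genes.

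**Figure D1:**
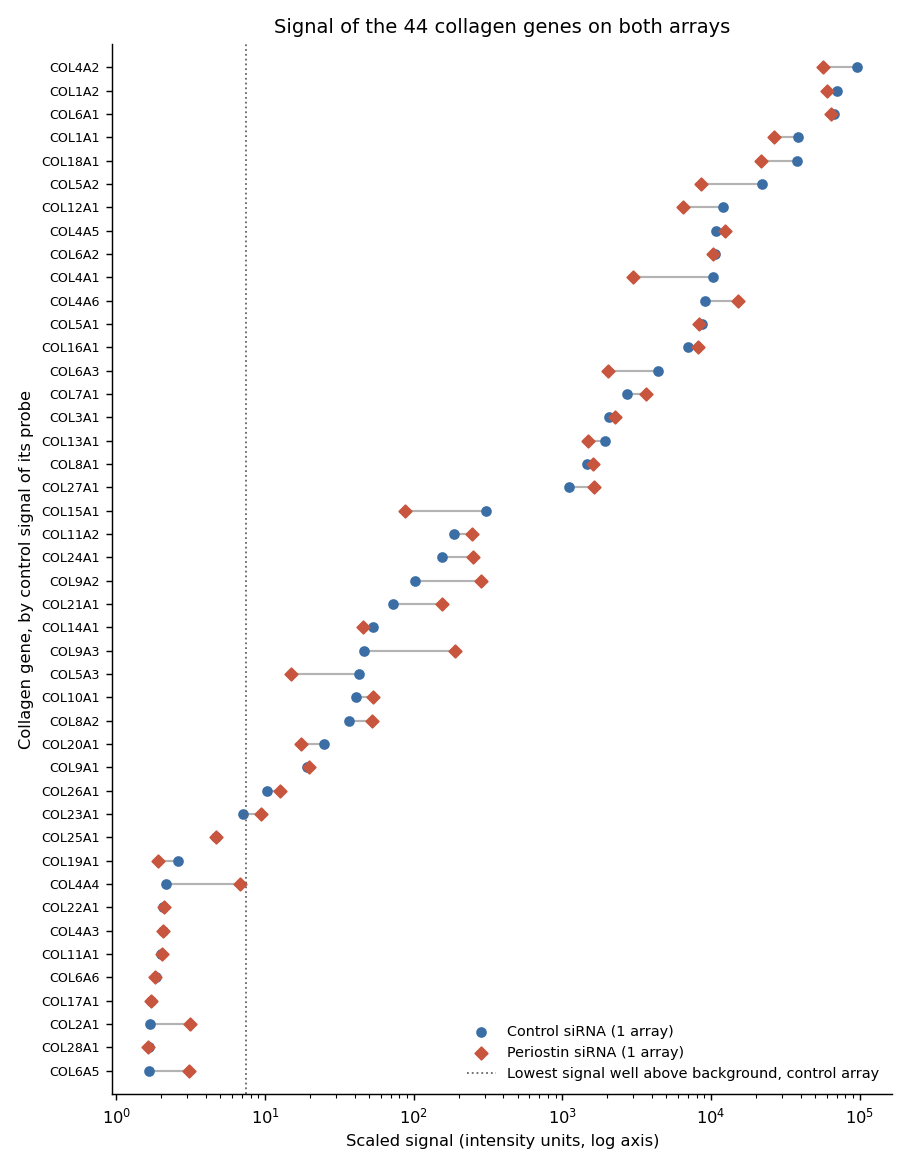
Scaled signal (log axis, intensity units) of the probe used for each of the 44 collagen genes with control siRNA (circles) and periostin siRNA (diamonds), 1 array each, ordered by control signal. The dotted line at 7.43 is the lowest signal that counted as well above background with control siRNA, and the wide gaps among bright probes belong to COL4A1 and COL5A2, both lower with periostin siRNA.

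A ratio could be given for 33 collagen genes, and the array of the periostin knockdown was lower for some and higher for others, with the lowest ratios in COL15A1 and COL4A1 and the highest in COL9A3. The ratio was below 0 for 16 genes and above 0 for 17. Their median log2 ratio was 0.04, against 0.06 for all 16052 genes with a ratio, and it was -0.086 under scaling on the array median, -0.030 under loess and -0.012 under quantile normalization, so the sign of the family's median depends on the scaling. Past 3-fold, 2 collagen genes were lower, where 2.75% of all genes were, and 1 was higher, where 3.37% were (6.12% in either direction). Past 2-fold, 5 were lower, which is 15.2% of the 33 beside 6.42% of all genes, and 3 were higher, which is 9.09% beside 7.97% (14.4% of all genes in either direction). The 5 lower genes were COL15A1, COL4A1, COL5A3, COL5A2 and COL6A3, and the 3 higher genes were COL9A3, COL9A2 and COL21A1. Just inside the 2-fold threshold lay COL21A1 at 1.09 and COL6A3 at -1.12, and just outside it COL12A1 at -0.88 and COL18A1 at -0.81. Among the 32 genes measured on both arrays, the ratio was lower than 0 by more than 2 spot errors in 11 and higher in 8, and lay within 2 spot errors in the other 13. Of all 14957 genes measured on both arrays, 18.9% were lower and 23.5% higher by that rule.

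The directions were spread unevenly over brightness. Of the 19 collagen genes at or above the 75th percentile of the control array, 3 were lower past 2-fold, where 5.69% of the genes of that brightness were, and 0 were higher, where 3.07% were. Of the 14 dimmer ones, 2 were lower and 3 were higher, where 7.17% and 13% of the genes of that brightness were. The median log2 ratio was -0.08 over the 19 brighter genes and 0.35 over the 14 dimmer ones, beside 0.01 and 0.12 for all genes of like brightness. The spots of a repeated probe scattered more at low signal, with a pooled SD of the log2 ratio of 0.23 in the dimmest 134 of the 667 repeated probes and 0.05 in the brightest 133. The 3 genes that were higher past 2-fold all had control signals at or below 102.

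**Figure D2:**
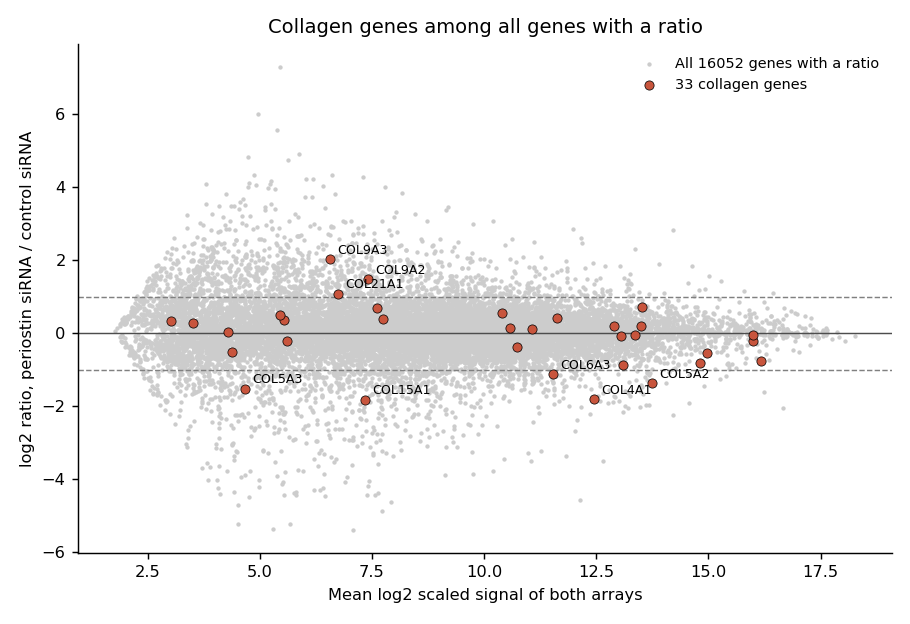
log2 ratio (periostin siRNA over control siRNA) against the mean log2 scaled signal of both arrays, for all 16052 genes with a ratio (grey) and the 33 collagen genes (red), 1 array per condition. Dashed lines mark 2-fold, and the named collagen genes are the 5 below and the 3 above these lines.

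In the fibrillar class, COL1A1 and 2 of the 3 chains of type V were lower with periostin siRNA by more than 2 propagated errors. COL1A2 was lower by more than 2 SD of its 10 spots, a smaller error, and COL3A1 lay within 2 propagated errors of 0. Measurements were obtained for 9 of 11 genes, whose median log2 ratio was -0.08, and 2 of them were lower and 0 higher past 2-fold, where 6.42% and 7.97% of all genes were. COL1A1 and COL1A2 encode the chains of type I collagen, the most abundant collagen of the lung interstitium. COL1A1 had a signal of 38579 on the control array and 26504 after knockdown, a log2 ratio of -0.54 with a propagated error of 0.20. For COL1A2 the signals of the 10 spots lay between 67193 and 72064, with a median of 70220.3, on the control array. On the periostin siRNA array they lay between 56662 and 63178, with a median of 61298. The spots of the arrays did not overlap, and the log2 ratio was -0.21 ± 0.05 (SD over 10 spots), a fold of 1.15. COL3A1, whose chain forms the homotrimeric type III collagen of distensible tissues, had 2066 and 2254, a log2 ratio of 0.13 whose sign changed under scaling on the median.

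Type V collagen, which is built into the core of type I fibrils and limits their width, is made mainly of chains from COL5A1 and COL5A2. COL5A1 had signals of 8669 and 8227, a log2 ratio of -0.08, and its other probe gave -0.17. COL5A2 went from 21848 to 8497, a log2 ratio of -1.36 with a propagated error of 0.20, or 2.57-fold lower. The ratios of the probes for these partner chains thus differed by 1.29 with a spot error of 0.29. That error does not cover the spread between probes, which was 1.27 within COL11A2. Whether the transcripts of the partner chains differed unequally therefore cannot be told. COL5A3, a chain of a rarer form of type V, had 42.7 and 15.0, a log2 ratio of -1.51 with an error of 0.26, and this dim probe gave -0.51 after the normexp background correction. The measured fibrillar chains of the remaining types lay above 0. COL27A1 had signals of 1109.9 and 1637, a log2 ratio of 0.56, with 0.26 from its other probe. COL24A1 had 154 and 249.7, a log2 ratio of 0.70. COL11A2, a chain of the cartilage collagen XI, had 187 and 245 by its brightest probe, a log2 ratio of 0.40, but 1.47 and 1.66 by the other probes, so its size is uncertain.

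In the basement membrane class the chains of one trimer were lower with periostin siRNA, whereas in another 1 chain was higher and 1 lay within 2 spot errors of 0. Type IV collagen genes lie in pairs, each pair head to head on one chromosome and transcribed in opposite directions from a shared region. COL4A1 and COL4A2 encode the chains of the trimer found in nearly all basement membranes, and COL4A5 and COL4A6 encode those of a trimer known from smooth muscle and some epithelia. The stretches between the start sites are shown for the pairs that were measured, read 5′ to 3′ on the + strand. They were taken from the RefSeq promoter windows of GRCh38.p14, and whether they bear on the ratios was not tested. Capitals mark CCAAT boxes (CCAAT or its reverse ATTGG) and GC boxes (GGGCGG or its reverse CCGCCC).
COL4A1 and COL4A2, the whole stretch of 126 bases between the start sites, chr13:110307158-110307283: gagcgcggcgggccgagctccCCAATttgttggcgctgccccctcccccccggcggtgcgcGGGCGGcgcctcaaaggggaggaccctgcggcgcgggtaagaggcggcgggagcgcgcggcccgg
COL4A6 and COL4A5, the 121 bases shared by the promoter windows within the 379 bases between the start sites, chrX:108439588-108439708: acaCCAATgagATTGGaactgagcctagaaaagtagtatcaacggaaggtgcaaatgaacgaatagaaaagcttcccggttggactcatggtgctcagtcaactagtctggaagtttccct

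The first stretch holds 1 CCAAT box and 1 GC box, and 80.2% of its bases are G or C. The shown part of the other holds 2 CCAAT boxes and no GC box, with 44.6% G or C. Neither holds TATAAA or its reverse TTTATA. Of 35116 RefSeq promoter windows of 300 bases, from 250 before to 50 after a start site, 34.6% hold a CCAAT box and 45.0% a GC box, and 4049 windows hold TATAAA, so these letters are common and their presence is a description only. The stretches shown are shorter than these windows, so the shares do not apply to them directly. Promoter windows were found for 32 of the 44 collagen genes.

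COL4A1 had a signal of 10357 on the control array and 2977 after knockdown, a log2 ratio of -1.80 with a propagated error of 0.20, or 3.48-fold lower. COL4A2 had 95751 and 56571, a log2 ratio of -0.76 with the same error, or 1.69-fold lower. Both chains were lower on the same array, and COL4A1 by more, with a difference of -1.04 (COL4A1 minus COL4A2) and a spot error of 0.29. Each was read by 1 probe, and this error does not cover the spread between probes. COL4A5 had 10709 and 12404, a log2 ratio of 0.21 with an error of 0.20. COL4A6 had 9107 and 15096, a log2 ratio of 0.73, or 1.66-fold higher. The pairs thus lay on opposite sides of 0, though COL4A5 was within 2 spot errors of it. The pair of COL4A3 and COL4A4 was below background. The class median of -0.27 lies between these pairs.

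**Figure D3:**
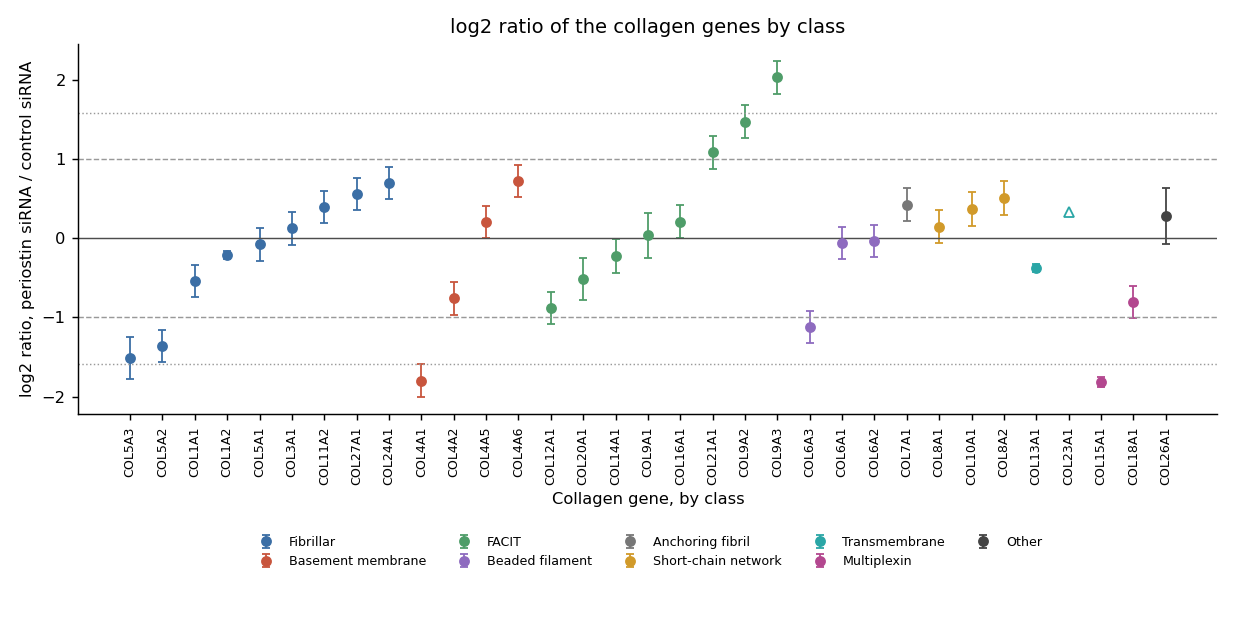
log2 ratio (periostin siRNA over control siRNA) for the 33 collagen genes with a ratio, by class, with bars for the propagated spot error or, for COL1A2, COL13A1 and COL15A1, the SD over 10 spots, and an open triangle for COL23A1, a bound. Dashed lines mark 2-fold and dotted lines 3-fold, and the basement membrane chains split into COL4A1 and COL4A2 below 0 and COL4A5 and COL4A6 above it.

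By the brightest probe of each gene, the FACIT class held the 3 collagen genes that were higher past 2-fold. None of its genes was lower past 2-fold. The mean over probes added COL11A2 of the fibrillar and COL8A2 of the short-chain network class, at 1.18 and 1.71. Over all genes the share higher past 2-fold was 7.97%. It was 13% among genes under the 75th percentile of the control array, where the 3 FACIT genes lie. Measurements were obtained for 8 of 10 FACIT genes, whose median log2 ratio was 0.13, which became -0.00031 under scaling on the median. Type IX collagen, known from cartilage where it decorates type II fibrils, is a trimer of the chains of COL9A1, COL9A2 and COL9A3. COL9A3 had a signal of 46.5 on the control array and 191 after knockdown, a log2 ratio of 2.04 with a propagated error of 0.21, or 4.10-fold higher, and under normexp the ratio was 1.27, which is under 3-fold. COL9A2 had 102 and 283, a log2 ratio of 1.48 with an error of 0.21, or 2.78-fold higher. COL9A1 had 19.3 and 19.9, a log2 ratio of 0.04 with an error of 0.28. The ratio of COL9A1 was lower than that of COL9A2 by more than the spot error, with a difference of -1.43 (COL9A1 minus COL9A2) and an error of 0.35. This error does not cover the spread between probes, and the COL9A1 probe was dim, so unequal differences of the transcripts are not established. Type II collagen, the partner of type IX in cartilage, was below background on both arrays by its gene COL2A1.

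COL21A1, a FACIT of blood vessel walls, had signals of 72.9 and 155, a log2 ratio of 1.09. COL12A1, a FACIT of dense connective tissue such as tendon, had 11953 and 6502, a log2 ratio of -0.88, and its other probe gave -0.99, so by both probes it was lower by just under 2-fold. COL16A1, found on small fibrils, had 7027 and 8147, a log2 ratio of 0.21, with 0.03 from its other probe. The remaining members were dim. COL14A1, which binds to mature fibrils, gave -0.22 and -0.18 by its probes, and COL20A1 gave -0.52 from signals of 24.8 and 17.3. The other COL20A1 probe was below background on both arrays, with 1.66 and 1.68. Under normexp the ratio of COL20A1 was -0.09.

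The COL6 genes encode type VI collagen, which forms beaded filaments around cells, and here 1 of the 3 measured chains was lower past 2-fold, where 6.42% of all genes were. COL6A1 had a signal of 66659 on the control array and 64025 after knockdown, a log2 ratio of -0.06. COL6A2 had 10586 and 10326, a log2 ratio of -0.04, whereas a probe for another of its transcript variants had 4016 and 5399 and gave 0.43. COL6A3, the long chain of the trimer, had 4367 and 2013, a log2 ratio of -1.12 with a propagated error of 0.20, or 2.17-fold lower. Its other probe had 1727 and 949 and gave -0.86, which is lower by less than 2-fold. The ratio of COL6A1 exceeded that of COL6A3 by 1.06 with a spot error of 0.29. COL6A1 and the brightest probe of COL6A2 differed by less than their spot error. This error does not cover the spread between probes, which was 0.46 within COL6A2. Both COL6A3 probes gave lower ratios than the probes of COL6A1 and COL6A2, but COL6A1 was read by 1 probe. Unequal differences of the transcripts are thus not established.

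The multiplexins, which carry short interrupted helices, lie beside basement membranes and release antiangiogenic C-terminal fragments, were lower in both members. COL15A1 was measured by 10 spots, whose signals lay between 264 and 344, with a median of 309, on the control array. On the periostin siRNA array they lay between 74.3 and 92.4, with a median of 88.0. No spot of one array reached the range of the other, and the log2 ratio was -1.81 ± 0.07 (SD over 10 spots), or 3.52-fold lower. Under normexp it was -1.33, which is under 3-fold. COL18A1, the endostatin precursor, had 38097 and 21759, a log2 ratio of -0.81 with a propagated error of 0.20.

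**Figure D4:**
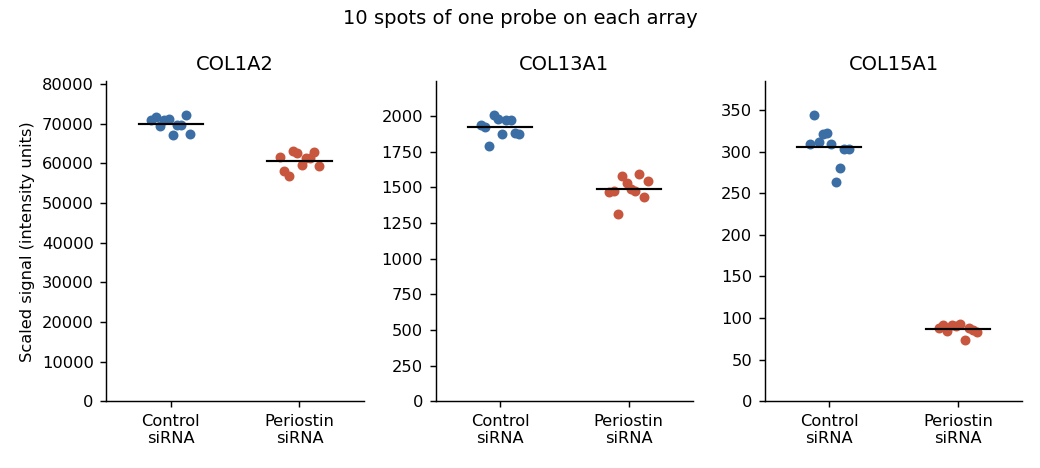
Scaled signal (intensity units, axis from 0) of the 10 spots of the probes for COL1A2, COL13A1 and COL15A1 on the control siRNA and the periostin siRNA array. Points are spots of 1 array and not cultures, lines are geometric means, and the spots of the arrays do not overlap for any of these genes.

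COL13A1, a transmembrane collagen of adhesion sites, was measured by 10 spots with signals between 1789 and 2005 with control siRNA and between 1316 and 1591 with periostin siRNA. These ranges did not overlap, and the log2 ratio was -0.37 ± 0.05 (SD over 10 spots), a fold of 1.29. COL23A1, also a transmembrane collagen, went from a signal not well above background to 9.34. Taken against the lowest detected signal of the control array, its log2 ratio was 0.33, less than its propagated error of 0.49. Under normexp it was 0.08. COL7A1, which forms the anchoring fibrils below epithelia, had 2711 and 3649, a log2 ratio of 0.43, and COL26A1 had 10.3 and 12.5, a log2 ratio of 0.28.

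The short-chain network collagens, which form hexagonal lattices, all lay above 0, with a median log2 ratio of 0.38 over 3 genes. COL8A1 and COL10A1 lay within 2 spot errors of 0. COL10A1 and COL8A2 were under the 75th percentile of the control array, where the median of all genes was 0.12. COL8A1, of vessel walls, had 1454 and 1614, a log2 ratio of 0.15. COL10A1, of hypertrophic cartilage, had 41.0 and 53.3, a log2 ratio of 0.38. COL8A2 had 36.6 and 52.3 by its brightest probe, a log2 ratio of 0.51, but its other probe had 7.85, not well above background, and 58.9. Taken against that dim signal it was 7.50-fold higher, with a propagated error of 0.37 on the log2 scale. The probes of COL8A2 share the same annotated transcript, so the size of its difference cannot be stated from these arrays.

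For 8 collagen genes both arrays detected more than 1 probe, and the probes gave the same sign in 7 of these. COL6A2 was the exception. The probes of COL14A1, COL5A1 and COL12A1 differed by 0.05, 0.10 and 0.12 on the log2 scale, which is within their spot errors. Those of COL11A2 spread over 1.27. Over the main setting and 10 alternatives, 30 of the 33 collagen genes kept their sign wherever they had a ratio, and the others were COL3A1, COL9A1 and COL6A2. COL23A1 had none under the filter for probes detected by both arrays. Of the 8 genes past 2-fold, COL15A1, COL4A1, COL5A2, COL9A2 and COL9A3 stayed past it in every setting run, while COL5A3 and COL6A3 missed it in 1 setting each and COL21A1 in 2. Not all alternatives could move a ratio by much. No collagen spot carried an outlier flag, so the filter on flagged spots removed none of them. The authors' table and scaling on spots detected by both arrays shifted the median of all genes by only -0.00043 and 0.0047.

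**Figure D5:**
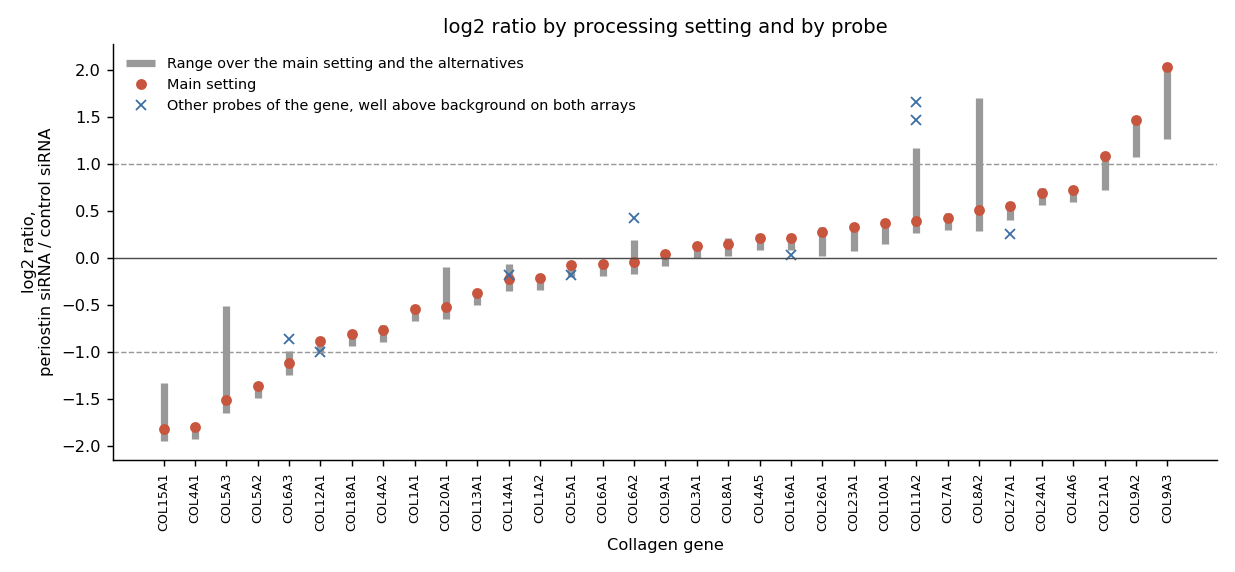
log2 ratio (periostin siRNA over control siRNA) for the 33 collagen genes in the main setting (red), its range over the main setting and 10 alternatives, or 9 for COL23A1 (grey bars), and the ratios of other probes well above background on both arrays (blue crosses). Dashed lines mark 2-fold, and the wide bars belong to COL5A3, COL11A2 and COL8A2.

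Collagen chains are hydroxylated, glycosylated and folded in the endoplasmic reticulum, then trimmed and crosslinked outside the cell. Measurements were obtained for 28 of 30 genes of these steps, whose median log2 ratio was -0.11, and 3 were lower and 1 was higher past 2-fold, which is 10.7% and 3.57% beside 6.42% and 7.97% of all genes. P4HA3, a subunit of a prolyl 4-hydroxylase, had signals of 269 and 53.0, a log2 ratio of -2.34. LOXL3, a lysyl oxidase that crosslinks collagen, had 5713 and 2826, a log2 ratio of -1.02 with a propagated error of 0.20. At 2.02-fold lower it lay just past the 2-fold threshold. Procollagen N-proteinases lay on opposite sides of 0, with ADAMTS14 at 85.9 and 368, a log2 ratio of 2.10. ADAMTS3 had 26.4 and 9.58, the latter not well above background. Taken against that dim signal it was 2.76-fold lower, with a propagated error of 0.37 on the log2 scale. TLL1 and PCOLCE2 were below background on both arrays.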

How the data were processed

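For each array a scanner output was deposited, from Feature Extraction 11.5.1.1 per the file headers (the submitters' processing notes name 12.0.3.1), and its intensity values were background-subtracted and detrended without scaling between arrays. A second table, deposited by the authors, holds normalized intensity values, which for the 49697 probes printed once equalled the scanner intensity times 3.65 on the control array and 3.54 on the other. The array was designed on hg19. Here log2 signals of 58717 non-control spots were scaled on their 75th percentile, and 65.1% of the spots were named through RefSeq accessions. Repeated spots were averaged as log2 values, and the brightest probe stood for a gene. Where only 1 array measured it, the ratio was taken against the dim signal of the other array. If the lowest detected signal of that other array was higher, it was used instead, and only then is the ratio a bound. Every collagen gene is accounted for, with values where it was measured, and genes of the processing and receptor lists are named if past 2-fold. The study's 3-fold threshold and a 2-fold threshold were used. The number of arrays limits the precision. The genes and lists were chosen with earlier results of these data known. The steps were tested on simulated data. Python 3.11.15, numpy 2.4.6, pandas 2.3.3, R 4.3.3 and limma 3.58.1 were used. The alternatives were normexp with an offset of 50 on the median spot brightness, no scaling, quantile normalization, scaling on the median or on spots detected by both arrays, loess with a span of 0.3, the authors' table, the mean over probes and filters on dim and on flagged spots.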

Additional observations from a re-analysis of the deposited data

How the results depend on the processing

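No paired analysis was possible because a single array stands for either condition, so leaving out replicates was not possible either. A block for the slide could not be fitted, the slide being common to the arrays. The normexp correction, whose offset of 50 pulls dim ratios towards 0 by construction, left 1 collagen gene lower (COL4A1) and 0 higher past 3-fold, gave 0.22 for the short-chain network median, -0.51 for COL5A3, -1.33 for COL15A1, 1.27 for COL9A3, 0.73 for COL21A1 and -2.99 for POSTN, and reduced the genes of the whole array past 3-fold from 441 lower and 541 higher to 190 and 143 (42.9% higher, against 55.1%). At 2-fold it gave 540 lower and 530 higher genes, against 1031 and 1279. Averaging the probes of each gene gave 2 collagen genes higher past 3-fold and 5 past 2-fold, adding COL8A2 at 1.71 and COL11A2 at 1.18, and -0.99 for COL6A3. With scaling on the array median, all genes had a median shifted by -0.13, and the medians were -0.086 for the collagen genes, -0.20 for the fibrillar, -0.40 for the basement membrane, -0.00031 for the FACIT, -0.19 for the beaded filament and 0.25 for the short-chain network class, with COL12A1 at -1.01 and COL21A1 at 0.96. The other alternatives kept these counts within 1.5 times and the medians within 0.12, the SD between repeated spots, though the median of the collagen genes was -0.030 under loess and -0.012 under quantile normalization, and both of these, like scaling on the median, gave 3 collagen genes lower past 3-fold, with COL5A3 added. Among the ratios of single genes, POSTN included, 9 moved by more than their spot error under normexp, 3 under scaling on the median, 3 under the mean over probes and 0 under the rest, and none past 2-fold changed sign. Among the rest, the filter on flagged spots removed no collagen spot.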

Other observations

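The receptors through which cells hold or take up collagen were measured on the same arrays. Measurements were obtained for 10 of 11 such genes, whose median log2 ratio (periostin siRNA over control siRNA) was 0.13, and 1 was lower and 0 were higher past 2-fold, beside 6.42% and 7.97% of all genes. The lower one was ITGA2, the α2 chain of a collagen-binding integrin, with signals of 337 and 91.0, a log2 ratio of -1.89, or 3.71-fold lower. The values below were chosen after they were seen. The α chains of the other collagen-binding integrins lay above 0, with ITGA1 at 0.45, ITGA10 at 0.59 and ITGA11 at 0.47, and their common partner ITGB1 gave -0.34. The receptor tyrosine kinases for collagen lay on either side of 0, DDR1 at 0.65 and DDR2 at -0.60, and GP6, the collagen receptor of platelets, was below background on both arrays.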
